A study of Drosophila melanogaster with 3 samples.

Results

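The genes described here encode 40 subunits of histone acetyltransferase complexes of Drosophila melanogaster, out of 13968 protein-coding genes, and the question was at which of them chif-eGFP was recovered at a start of transcription. The genes were taken from a list of names, and all 40 were found in the annotation. Of these, 29 belong to complexes built around Gcn5 and 11 to the Tip60 complex, the CBP enzyme and the MYST enzymes with a scaffold, Br140. A gene was called bound when the summit of a region in the authors' thresholded list lay within 500 bp of any of its annotated transcription start sites (TSSs). The rule goes by the names of the genes, but the list was drawn up with earlier results of these data known, so its share is no independent comparison with all genes.

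The data came from 1 group of 3 biological replicates, which the labels give as separate samples of the same strain. Each was chromatin of whole embryos, males and females together, aged 0 to 24 hours, of a stable transgenic line in which chiffon (chif, transcript chif-RB in the strain's name) carries GFP at the C-terminus. DNA bound to the fusion was recovered with an antibody against GFP from chromatin sonicated to 200 to 800 bp and was sequenced. No untagged library was analysed here, 1 control file served all lists, and the labels do not settle which chiffon proteins bear GFP, so recovery of open promoters in general cannot be told apart from binding of chiffon. No RNA was measured, and the label of whole embryos could not be checked against markers.

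Histone acetyltransferases add acetyl groups to the tails of histones, a mark of active promoters, and most work inside large complexes. Gcn5 is the catalytic subunit of SAGA, which also carries a deubiquitinase, and of ATAC, which is found in animals and holds another acetyltransferase, Atac2. In flies Gcn5, Ada3, Sgf29 and a form of Ada2b also join chiffon, the relative of the Cdc7 activator Dbf4, in a smaller complex named CHAT. Tip60 works with the ATPase Domino, and nejire (nej) is the fly CBP.

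The sequence at 8 of the bound summits is printed to show what the recovered promoters hold, from the bound genes whose summit lies clear of exons and for which a sequence can be given. Each run covers up to 100 bases on either side of the summit, cut where it meets an exon, and reads 5′ to 3′ on the strand of the gene from the Release 6 genome (dm6). Capitals mark matches to the motifs described further on.
Gcn5, chr3L:12524096-12524296, minus strand: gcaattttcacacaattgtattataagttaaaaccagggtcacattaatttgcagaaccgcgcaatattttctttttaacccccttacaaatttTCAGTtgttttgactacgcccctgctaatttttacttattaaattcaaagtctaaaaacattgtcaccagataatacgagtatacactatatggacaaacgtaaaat
Ada2b, chr3R:8239979-8240179, minus strand: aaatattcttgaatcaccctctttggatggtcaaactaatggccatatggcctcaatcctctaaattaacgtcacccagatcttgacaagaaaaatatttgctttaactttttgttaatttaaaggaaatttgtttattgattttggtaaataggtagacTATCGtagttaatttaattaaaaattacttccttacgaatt
Ada3, chrX:18085474-18085674, plus strand: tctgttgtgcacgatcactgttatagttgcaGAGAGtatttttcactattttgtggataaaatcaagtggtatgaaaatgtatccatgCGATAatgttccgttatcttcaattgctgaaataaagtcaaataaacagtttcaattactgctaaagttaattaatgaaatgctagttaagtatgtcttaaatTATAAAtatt
wda, chr3R:23258231-23258364, minus strand: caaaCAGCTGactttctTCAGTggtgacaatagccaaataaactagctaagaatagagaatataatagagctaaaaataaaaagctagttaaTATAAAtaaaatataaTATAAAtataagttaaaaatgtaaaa
Spt7, chrX:17850343-17850459, plus strand: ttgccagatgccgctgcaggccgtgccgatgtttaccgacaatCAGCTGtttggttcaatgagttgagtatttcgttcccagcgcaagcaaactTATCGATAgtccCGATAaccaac
e(y)2, chrX:11576662-11576862, minus strand: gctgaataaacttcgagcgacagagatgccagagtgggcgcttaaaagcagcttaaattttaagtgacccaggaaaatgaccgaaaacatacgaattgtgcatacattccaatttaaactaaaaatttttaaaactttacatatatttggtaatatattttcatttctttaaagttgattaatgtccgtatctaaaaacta
nej, chrX:9685992-9686192, minus strand: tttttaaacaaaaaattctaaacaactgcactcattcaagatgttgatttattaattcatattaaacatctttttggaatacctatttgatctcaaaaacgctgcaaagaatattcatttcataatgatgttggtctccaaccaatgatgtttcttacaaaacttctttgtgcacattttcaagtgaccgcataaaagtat
chm, chr2L:7412272-7412416, plus strand: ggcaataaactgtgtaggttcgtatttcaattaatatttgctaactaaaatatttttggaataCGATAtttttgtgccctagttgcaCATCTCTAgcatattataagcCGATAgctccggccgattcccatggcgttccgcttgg
The runs of Gcn5, Ada2b, Ada3, e(y)2 and nej have GC contents of 28.4% to 31.3% over their whole length. Spt7 holds the palindrome TATCGATA downstream of the summit, and chm holds CATCTCTA close to the summit.

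A larger share of the acetyltransferase complex genes than of all protein-coding genes was bound, and the Gcn5 core was bound at each of its 4 genes. At Gcn5, Ada3 and Sgf29 of that core, however, the summit also lay within 500 bp of another gene's TSS. The Sgf29 region was among the top regions of replicate 3 alone. In the thresholded list 13 of the 40 genes were bound (32.5%), against 20.6% of all protein-coding genes (2879 of 13968). Another gene's TSS lay within 1000 bp at 26 of the 40 genes and at 6728 of the 13968. Protein-coding genes with such a neighbour were bound at 30.6%, and those without at 11.3%. Of the Gcn5 complexes 8 of 29 genes were bound (27.6%), and of the other acetyltransferases 5 of 11 (45.5%). Within the Gcn5 complexes the core of Gcn5, Ada2b, Ada3 and Sgf29 was bound at 4 of 4 genes. The structural subunits of SAGA were bound at 2 of 10, its deubiquitinase module at 2 of 4 and its splicing factors at 0 of 2. The ATAC genes listed outside the core were bound at 0 of 9. Core genes were counted once, so Gcn5, also the catalytic subunit of ATAC, is not among these 9. Among the others the Tip60 complex was bound at 2 of 6 genes and the CBP and MYST enzymes, counted with the scaffold Br140, at 3 of 5. The excess over all genes was not seen among the strongest regions: with the thresholded list cut at its median signal, 5 of the 40 genes were bound (12.5%), near the 11.4% of all protein-coding genes. These are small numbers of genes, and no test of a list against other genes was made.

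**Figure D1:**
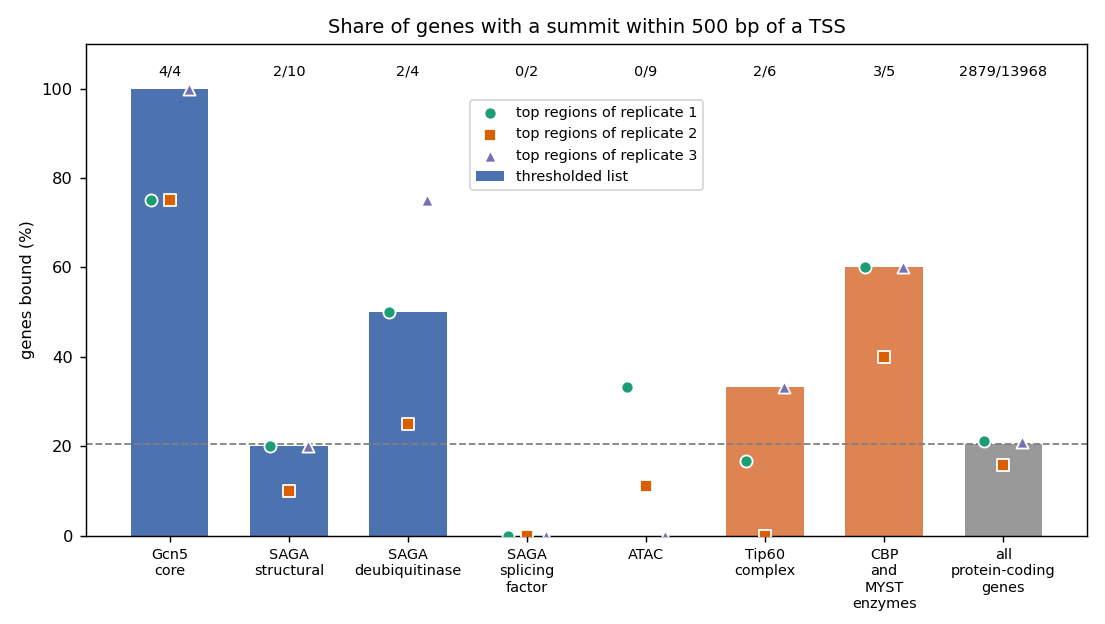
Percent of genes with a summit within 500 bp of a TSS, by subgroup of acetyltransferase genes. Bars show the thresholded list (blue for Gcn5 complexes, orange for the other acetyltransferases, grey for all protein-coding genes), points the 5035 top regions of each replicate, and fractions above give bound genes over genes in the subgroup. The dashed line is the 20.6% of all protein-coding genes in the thresholded list. In the top regions of replicates 1, 2 and 3 their shares were 21.1%, 15.9% and 20.9%. The Gcn5 core, of only 4 genes, lies above these in every replicate.

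Each replicate was then read by its own 5035 regions of highest signal, as many as the thresholded list holds. The acetyltransferase genes were bound at 35% in replicate 1, 20% in replicate 2 and 35% in replicate 3, or 30% ± 8.66 (SD, n = 3), and all protein-coding genes at 21.1%, 15.9% and 20.9%, or 19.3% ± 2.95. The share was higher for the acetyltransferase genes in 3 of 3 replicates, by the least in replicate 2. Gcn5 complexes were bound at 34.5%, 20.7% and 31%, or 28.7% ± 7.18, and the other acetyltransferases at 36.4%, 18.2% and 45.5%, or 33.3% ± 13.9 (SD, n = 3 each). Those means of the replicates differ by less than either SD, and in replicate 2 the order is turned round. Both classes were lowest in replicate 2, so part of each SD is a shift they share. The spread of the differences within replicates was not computed, so no difference between the Gcn5 complexes and the others was established. In the longer list called on pooled reads, with 30000 regions, 24 of the 40 genes had a region (60%), with 15 of 29 Gcn5 complex genes (51.7%) and 9 of 11 others (81.8%), against 52.3% of all protein-coding genes.

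The thresholded list held 5035 regions, which were the regions of highest signal in the pooled list, with a signal of 106 to 3635. The signal is the value the authors' peak caller gave each region, and it is used only within a list. Neither read counts nor depth are in the lists, so the precision of a signal is unknown. Bound acetyltransferase genes had signals of 107 to 424 with a median of 155, and all bound protein-coding genes a median of 195. Median signals were 181 at bound Gcn5 complex genes and 137 at the other bound acetyltransferase genes. Ranks below count from 1 for the highest signal in a list, and a gene's rank in a replicate is that of its strongest region with a summit within 500 bp of a TSS.

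**Figure D2:**
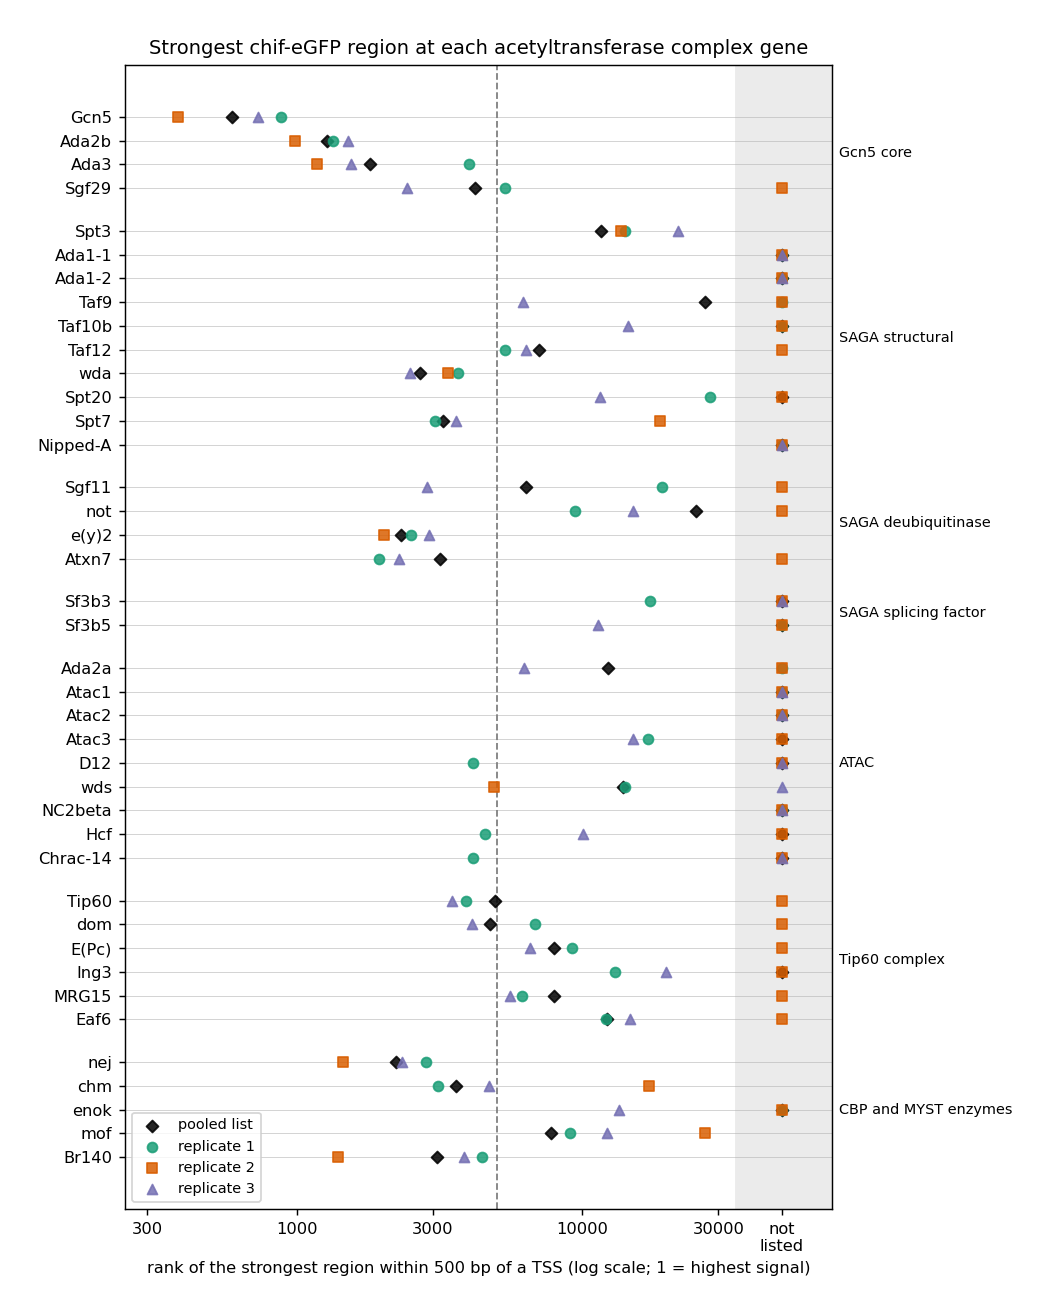
Rank of the strongest region within 500 bp of a TSS of each of the 40 genes, on a log scale, in the pooled list and in each replicate. The dashed line marks rank 5035, the length of the thresholded list, and symbols in the grey band had no region in that list of 30000. Gcn5, Ada2b and Ada3 lie left of the line in all 3 replicates, while most ATAC genes listed outside the core lie right of it or in the band.

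Gcn5 (FBgn0020388), the catalytic subunit, had the strongest region of the 40 genes. It ranked 879 in replicate 1, 383 in replicate 2 and 733 in replicate 3, and 592 in the thresholded list with a signal of 424. The region, chr3L:12524082-12524332, had its summit at 12524196, 182 bp upstream of the Gcn5 TSS. That summit lay in an intron of the divergent gene ver, which encodes a telomere capping protein, 209 bp downstream of its TSS, so the region cannot be given to Gcn5 alone. The summits of the replicates fell within 14 bp of each other.

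Ada2b (FBgn0037555), the adaptor that joins Gcn5 to SAGA, ranked 1339, 984 and 1507 in replicates 1, 2 and 3, with a thresholded signal of 282 (rank 1280). Its region at chr3R:8239874-8240283 had a summit at 8240079 in an intron of Ada2b, 436 bp downstream of the single TSS, and no other gene starts nearby: the nearest other TSS is 3277 bp from that of Ada2b. This was the Gcn5 core gene whose call does not depend on a neighbour, but it is lost when a summit must lie within 250 bp. Ada3 (FBgn0030891), another adaptor of the core, ranked 4006, 1177 and 1551, with a signal of 225 (rank 1811). The summit of chrX:18085369-18085778 lay 187 bp upstream of Ada3 in an intron of CG7536 and 112 bp upstream of a TSS of that gene. Thus all of these 3 core genes were among the top regions of all 3 replicates.

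Sgf29 (FBgn0050390), which carries tudor domains that read methylated histone H3, was the weakest of the core. It ranked 5383 in replicate 1, had no region in replicate 2 and ranked 2437 in replicate 3, with a thresholded signal of 122 (rank 4225). The summit of chr2R:21293571-21293980 lay 130 bp upstream of Sgf29 in the 5' UTR of the ribosomal protein gene RpL29, 8 bp downstream of the RpL29 TSS. It was within the top regions of replicate 3 alone. Sgf29 therefore drops out by construction whenever 1 replicate is set aside and both others must hold the region.

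Among the 10 structural subunits of SAGA, wda and Spt7 were bound. The gene wda (FBgn0039067), a WD-repeat protein needed for SAGA acetylation, ranked 3673, 3384 and 2493 in replicates 1, 2 and 3, with a signal of 171 (rank 2701). Its summit in chr3R:23258126-23258535 was intergenic, 244 bp upstream of wda and 34 bp upstream of Pex11c, a peroxisome gene. Spt7 (FBgn0030874), a scaffold subunit, ranked 3058 in replicate 1, 18754 in replicate 2 and 3627 in replicate 3, with a signal of 149.8 (rank 3247). The summit of chrX:17850186-17850595 was intergenic, 69 bp upstream of Spt7 and 49 bp upstream of CG15814. So wda was among the top regions of every replicate, and Spt7 was far down the list of replicate 2.

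The other 8 structural genes were not bound. Taf12, which pairs with Ada1 through a histone fold, came nearest with a pooled rank of 7033, and ranked 5385 and 6382 in replicates 1 and 3. Spt3, known from yeast to contact the TATA-binding protein, had pooled rank 11618, and Taf9, a histone-fold subunit shared with TFIID, had pooled rank 27037. Spt20, a scaffold subunit, and Taf10b, a histone-fold subunit, had regions in replicate lists and none in the pooled list. No list had a region at Nipped-A, the large scaffold that SAGA shares with the Tip60 complex, and its nearest thresholded summit was 124122 bp away. Ada1-1 and Ada1-2 also had none, but their sequences share 1649 identical bases (99.5% of those aligned) and start 3907 bp apart, so reads of these copies could be split or lost in mapping and the lack of a region there is uncertain.

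In the deubiquitinase module, which removes ubiquitin from histone H2B, e(y)2 and Atxn7 were bound. The small subunit e(y)2 (FBgn0000618), which also works in mRNA export, ranked 2507, 2021 and 2909 in replicates 1, 2 and 3, with a signal of 191 (rank 2319). The intergenic summit of chrX:11576557-11576966 lay 142 bp upstream of e(y)2 and 121 bp upstream of CG11695. Atxn7 (FBgn0031420), which anchors the module to SAGA, ranked 1943 in replicate 1 and 2289 in replicate 3 and had no region in replicate 2, with a signal of 152 (rank 3174). The summit of chr2L:2375645-2376054 lay in its own 5' UTR, 9 bp downstream of its TSS, with no other protein-coding start within 500 bp.

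The enzyme of the module, not (nonstop), and its partner Sgf11 were not bound at a TSS. Sgf11 ranked 19061 in replicate 1, had no region in replicate 2 and ranked 2855 in replicate 3, with a pooled rank of 6373. For not, the pooled rank was 25007, yet 2 thresholded regions lay inside the gene: chr3L:18621048-18621457 in an intron, 876 bp downstream of the TSS (signal 121), and chr3L:18618126-18618535 in the 3' UTR (signal 127), where CG4174, CG13380 and a proline tRNA also start nearby. With a TSS distance of 1000 bp, not was the 1 acetyltransferase gene added to the bound ones, which were then 14 of 40 (35%), against 23.8% of all protein-coding genes. Neither splicing factor of SAGA had a pooled region: Sf3b3 was listed in replicate 1 alone (rank 17311) and Sf3b5 in replicate 3 alone (rank 11322).

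None of the 9 ATAC genes listed outside the core was bound in the thresholded list, against 20.6% of all protein-coding genes. Gcn5, the catalytic subunit of ATAC, was counted with the core and was bound. Of the 9, Ada2a and wds had a pooled region (22.2%), against 52.3% of all protein-coding genes. With so few genes these shares are coarse. Ada2a, the ATAC counterpart of Ada2b, ranked 12279 in the pooled list, had no region in replicates 1 and 2 and ranked 6255 in replicate 3. The WD-repeat gene wds, also part of methyltransferase complexes, ranked 14121 in replicate 1 and 4910 in replicate 2 and was not listed in replicate 3, with a pooled rank of 13862. By the top regions of single replicates, the 9 counted 3 genes in replicate 1 (33.3%), 1 in replicate 2 (11.1%) and 0 in replicate 3. The shares of all protein-coding genes there were 21.1%, 15.9% and 20.9%.

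Outside the core, the 3 ATAC genes of replicate 1 were Hcf (rank 4550), a large cofactor, D12 and Chrac-14. D12 and Chrac-14, histone-binding and histone-fold subunits, start 40 bp apart and share 1 region (rank 4162). Hcf ranked 10052 in replicate 3, whereas D12 and Chrac-14 had no region in replicates 2 and 3. Atac3 was listed at rank 17069 in replicate 1 and 15046 in replicate 3. Atac1, the acetyltransferase Atac2 and NC2beta, which is also part of a repressor of transcription, had no region in any list. Thus no ATAC gene listed outside the core was among the top regions of more than 1 replicate.

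In the Tip60 complex the catalytic subunit Tip60 and the ATPase dom were bound, both near the end of the thresholded list. Tip60 (FBgn0026080) ranked 3905 in replicate 1 and 3501 in replicate 3 and had no region in replicate 2, with a signal of 107 (rank 4967). The summit of chrX:4116800-4117209 lay in the 5' UTR of Tip60, 56 bp upstream of an internal TSS and 15 bp upstream of tyf, a gene of the circadian clock. For dom (FBgn0020306) the ranks were 6810 in replicate 1 and 4097 in replicate 3, again with no region in replicate 2, and the signal was 111 (rank 4752). Its summit in chr2R:21323270-21323679 lay in the 5' UTR of dom, 45 bp downstream of the TSS and 155 bp upstream of CG30394.

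The other 4 genes of this complex fell below the threshold. MRG15, a chromodomain subunit, ranked 6173 in replicate 1 and 5586 in replicate 3, with a pooled rank of 7961. E(Pc), the Enhancer of Polycomb scaffold, ranked 9183 and 6542 in the same replicates, with a pooled rank of 7998, and Eaf6, a small subunit also found in MYST complexes, had a pooled rank of 12209. Ing3, which reads methylated histone H3, had regions in replicates 1 and 3 (ranks 13078 and 19647) and none in the pooled list. None of the 6 Tip60 complex genes had a region in the list of replicate 2. The share of all protein-coding genes with a region in that full list was not determined. Its top regions reached 15.9% of all protein-coding genes, against 21.1% and 20.9% for replicates 1 and 3.

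Of the CBP and MYST enzymes, nej and chm were bound, as was Br140, a scaffold counted with them. The gene nej (FBgn0261617), which encodes CBP, ranked 2839, 1453 and 2337 in replicates 1, 2 and 3, with a signal of 196 (rank 2223). The summit of chrX:9685887-9686296 lay inside nej, in an intron, 425 bp upstream of an internal TSS at 9685667, with no other protein-coding start nearby. Like Ada2b, nej drops out at a TSS distance of 250 bp, which leaves 11 of the 40 genes (27.5%), against 16.5% of all protein-coding genes.

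The MYST enzyme gene chm (chameau, FBgn0028387) ranked 3135 in replicate 1, 17123 in replicate 2 and 4735 in replicate 3, with a signal of 137 (rank 3622). The intergenic summit of chr2L:7412167-7412576 lay 45 bp upstream of its only TSS, and the nearest other TSS is 1508 bp from it. A further thresholded region inside chm, chr2L:7420589-7420998, lay in an intron 8377 bp downstream of the TSS (signal 152), and it was among the top regions of all 3 replicates. The promoter region of chm was thus low in replicate 2, where the intronic one was not.

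Br140 (FBgn0033155), the scaffold that works with the enzyme Enok, ranked 4448, 1395 and 3848, with a signal of 155 (rank 3096). The summit of chr2R:7278079-7278488 was intergenic and lay 183 bp upstream of both Br140 and Incenp, a gene of the chromosomal passenger complex. The gene enok itself was listed in replicate 3 alone (rank 13434). The dosage compensation acetyltransferase gene mof had ranks of 9094, 26948 and 12179 and a pooled rank of 7776.

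Along the thresholded list, the bound genes nearest its end were Sgf29 with a signal of 122, dom with 111 and Tip60 with 107, and the genes just past it in the pooled list were Sgf11 with 87.8, Taf12 with 81 and mof with 75.1. Of the 27 genes not bound, 11 had a region in the pooled list, 10 had one in a replicate's list only and 6 had none in any list. Replicate 1 listed a region at 16 of the 27, replicate 2 at 3 and replicate 3 at 17. The matching shares of all unbound protein-coding genes were not determined, so these counts cannot be read as particular to the 27. The nearest thresholded summit lay a median of 4782 bp from a TSS of these genes, and it was under 2000 bp away for 5 of them.

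Many of the calls rest on promoters that the acetyltransferase genes share with a neighbour. At 9 of the 13 bound genes (69.2%) the same summit lay within 500 bp of another protein-coding gene's TSS, as it did for 57.1% of all bound protein-coding genes (1644 of 2879). The 4 with no such neighbour were Ada2b, Atxn7, nej and chm. Among genes with no other gene's TSS within 1000 bp, 3 of 14 acetyltransferase genes were bound (21.4%), and 818 of 7240 protein-coding genes (11.3%). Among the rest, 10 of 26 acetyltransferase genes (38.5%) and 30.6% of protein-coding genes were bound. Split by class, 1 of 8 such isolated Gcn5 complex genes (12.5%) and 2 of 6 isolated others (33.3%) were bound.

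Summits lay mostly upstream of the TSS. Across the 13 bound genes the median position was -130.0 bp, with quartiles of -183 and -45 bp, and 10 lay upstream (76.9%), against a median of -123 bp and 87.7% upstream for all bound protein-coding genes. By annotation, 4 summits were in a 5' UTR (Sgf29's in that of RpL29), 4 in an intron and 5 between genes. Replicates placed the summit within 6 bp of each other at Tip60 and 8 bp at Atxn7, each listed by 2 replicates, and within 135 bp at Br140, the widest range of the 13. By chromosome, 5 of 9 acetyltransferase genes on X were bound, where 19.9% of all protein-coding genes were, and 1 of 7 on 3L, where 21.1% were, with 2 of 10 on 2L (20.7% of all protein-coding genes there), 3 of 6 on 2R (18.7%), 2 of 7 on 3R (22.4%) and 0 of 1 on 4 (13.8%).

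**Figure D3:**
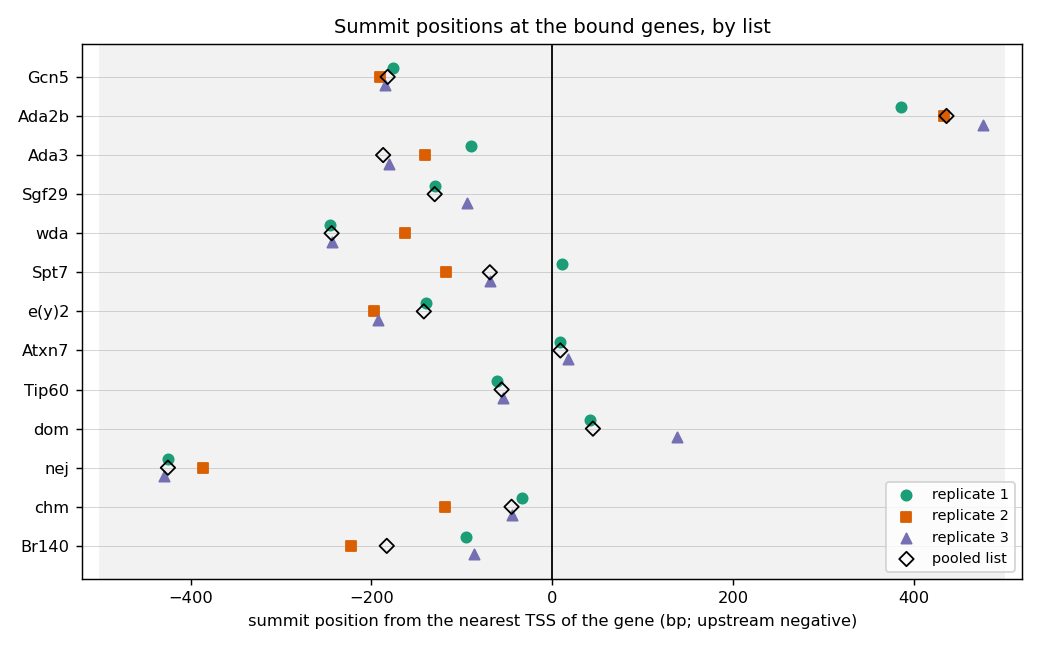
Position of the summit in bp from the nearest TSS of each of the 13 bound genes, in the pooled list (open diamonds) and in each replicate (filled symbols), with upstream negative. Most summits lie within 250 bp upstream, and those of Ada2b and nej lie 436 and 425 bp from the TSS in the pooled list.

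Replicate 2 held fewer of these promoters than the others, and the ones it held differed in base composition, a pattern seen once the values were known. Its top regions held 7 of the 13 bound regions, against 11 for replicate 1 and 13 for replicate 3. Of all 2245 thresholded promoter summits, replicate 2 held 1433, replicate 1 held 1958 and replicate 3 held 2015. The lower number in replicate 2 was thus not particular to these genes. The 7 were those of Gcn5, Ada2b, Ada3, wda, e(y)2, nej and Br140, and the 6 not held were those of Sgf29, Spt7, Atxn7, Tip60, dom and chm. Within 100 bp of the summit the 7 held had a GC content of 28.4% to 35.8% with a median of 29.9%, and the 6 not held 37.3% to 47.3% with a median of 42.5%, so that the ranges do not overlap. The distance to the nearest protein-coding TSS had a median of 182 bp (34 to 436 bp) at the 7 held and 30 bp (8 to 49 bp) at the 6 not held.

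Over all thresholded promoter summits the medians differed in the same direction, but the ranges overlapped almost fully. Those held by replicate 2 had a GC content of 19.9% to 62.2% with a median of 34.8% and lay a median of 127 bp from a TSS (n = 1433). Those not held had a GC content of 21.9% to 64.2% with a median of 40.3% and lay a median of 78 bp from a TSS (n = 812). Promoter summits below the median GC content of 36.3% were held by replicate 2 in 76.9% of cases and those at or above it in 51.7%, while for replicate 1 these shares were 88.2% and 86.3%, and for replicate 3 they were 91.1% and 88.5%. The part of GC content, library or position in the missing calls of replicate 2 was not tested. Without replicate 2, with the thresholded regions asked to hold a top summit of both other replicates, 11 of the 40 genes were bound (27.5%), Sgf29 and dom being lost, against 16.6% of all protein-coding genes. Without replicate 1 or without replicate 3 the count was 7 (17.5%), against 12.5% and 12% of all protein-coding genes. The count was also 7 when all 3 replicates had to hold a region, against 11.3%, so the genes left were those that replicate 2 held.

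**Figure D4:**
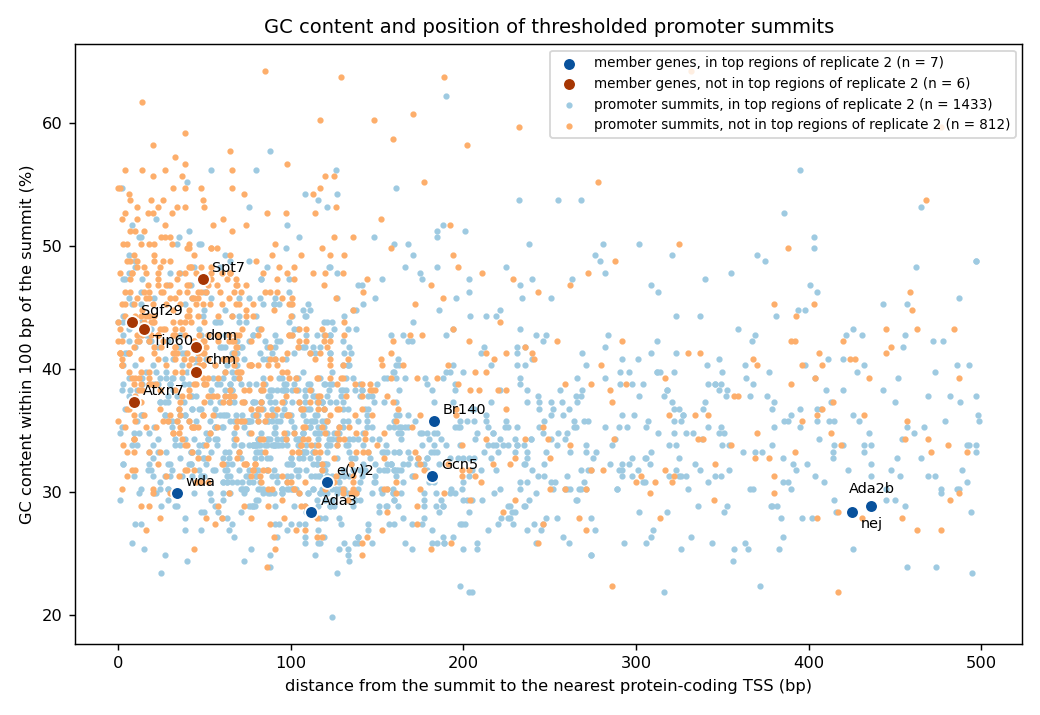
GC content in percent within 100 bp of a summit against its distance in bp to the nearest protein-coding TSS, for thresholded promoter summits (small points) and the bound acetyltransferase genes (large labelled points). Blue marks summits in the top regions of replicate 2 and orange or brown those that are not. The 7 blue labelled genes lie at or below 35.8% GC and the 6 brown ones at or above 37.3%.

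Letter motifs known from fly promoters were searched on both strands within 100 bp of each of the 13 summits, with exon sequence included. The shares in brackets are first those of 2245 thresholded promoter summits and then those of 19276 windows of the same width around protein-coding TSSs. TATCGATA, the DRE bound by Dref, was at 2 genes, Spt7 and Atxn7 (7.71% and 6.44%). CGATA, a motif of the insulator protein BEAF-32 that lies inside TATCGATA on both strands, was at 7 genes, or 53.8% (40.5% and 37.1%). Atxn7 and Spt7 each held 5 such matches, counted with those inside the DRE. CATCNCTA, known as motif 7, was at 3 genes, chm, Atxn7 and Br140, or 23.1% (8.42% and 4.46%).

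GGTCACAC, part of motif 1, was at dom alone (5.48% and 5.68%), and the E-box CAGCTG at Spt7, Atxn7 and wda (12.2% and 13.4%). GAGAG was at 3 genes (20.9% and 25%), TATAAA at 4 (32.5% and 26.9%) and TCAGT, part of the initiator, at 3 (32.1% and 43.4%). TTTCCCGC and TTTGGCGC, forms of the E2F site, and CAGGTAG, the Zelda site, were at none of the 13, in windows where 0.935%, 1.43% and 0.757% of promoter summits hold them. In the windows at e(y)2 and nej, printed above, no searched motif matched. A match describes the letters only, and the 13 windows are too few to set a share apart from the background.

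**Figure D5:**
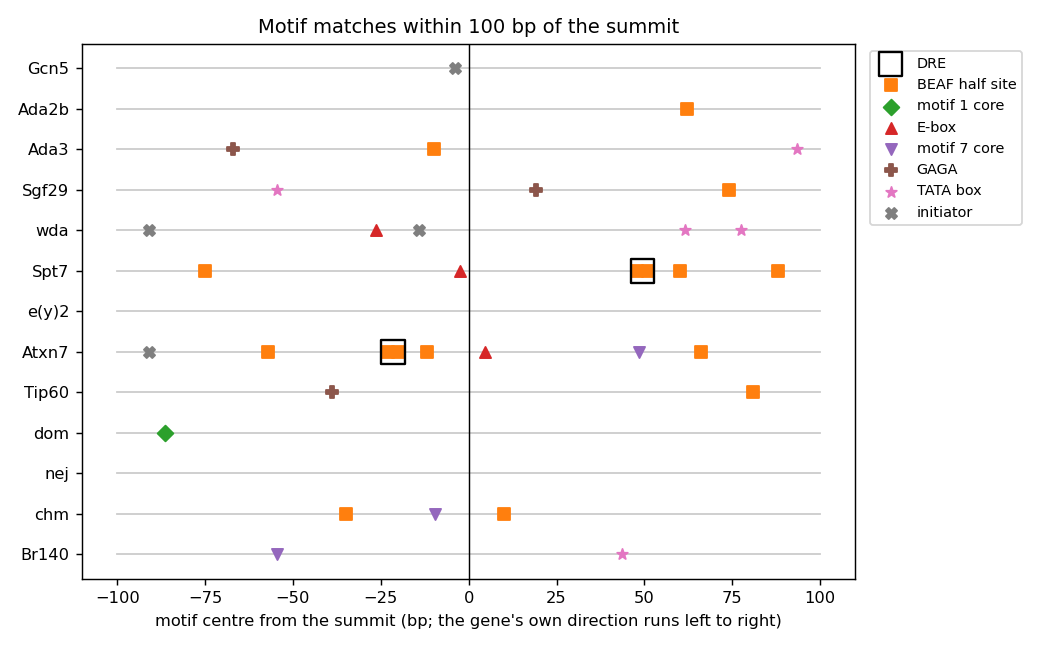
Position of each motif match, in bp from the summit, at the 13 bound genes, with the gene's own direction running left to right. Open squares mark TATCGATA, which contains 2 overlapping CGATA matches, and grey lines the window searched. Atxn7 and Spt7 have the most matches, and e(y)2 and nej have none.

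Further genes of the same biology, in lists chosen with results of these data known, were read by the same rule. Of 47 such genes 19 were bound (40.4%), against 20.6% of all protein-coding genes, and 11 (23.4%) were in the top regions of replicate 2, against 15.9%. Of these genes, 41 have another gene's TSS within 1000 bp, and none of the 6 that do not was bound, against 11.3% of such protein-coding genes. Among 19 further subunits of acetyltransferase complexes 6 were bound, led by Hat1, a type B acetyltransferase, with a signal of 429.6 (ranks 705, 412 and 664 in replicates 1, 2 and 3). The helicase gene pont followed with 204, ahead of Gas41 with 131, MrgBP with 118 and msl-1 with 114. Gas41 shares its summit with SA1 and MrgBP with Ggamma1, and msl-1 was held by replicate 1 alone. Hat1 thus reached a signal close to that of Gcn5 in the same list, and its summit also lay 257 bp upstream of Rpn5.

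TFIID, the general factor that shares Taf9 and Taf12 with SAGA, was bound at 5 of 11 genes (45.5%), against 20.6% of all protein-coding genes. Taf9 and Taf12 were counted with SAGA, not among the 11, and were not bound. The 5 bound were Taf4 with a signal of 301, Taf7 with 174, Taf2 with 147, Taf13 with 134 and Taf5 with 111. All but Taf4 share the summit with a neighbour: EMC1 at Taf7, CalpB at Taf2, nesd at Taf13 and Pex6 at Taf5. Taf13 and Taf5 were held by replicate 1 alone. Deacetylases, which remove acetyl groups, and their partners were bound at 6 of 15 genes (40%), against the same 20.6%. Of the 15, 8 have a single TSS (53.3%), against 73.5% of all protein-coding genes, and a gene with more TSSs has more places where a summit counts. The strongest of the 6 were the corepressor Sin3A with 369, Sirt1 with 252, Sirt6 with 204, HDAC3 with 146 and Bin1 with 113. The summit at Sirt1 lay 425 bp upstream of it and 121 bp upstream of DnaJ-H. HDAC3 shares its summit with Hcs and CG45100, and Bin1 with sra. Sirt6 and pont share 1 region between their starts. Both chif (signal 353) and the kinase gene Cdc7 (signal 125) were bound. For chif the ranks were 1236, 585 and 1001 in replicates 1, 2 and 3. Its summit lay 84 bp upstream of an internal TSS, in an intron of chif and of Hyls1. The line carries a chif transgene of unknown copy number, and its part in the signal at chif was not tested. Cdc7 ranked 2208 in replicate 1 and 6220 in replicate 3, with no region in replicate 2, and its summit also lay 281 bp upstream of CG3226.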

How the data were processed

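Per the file headers and labels, the authors deposited region lists on dm6: 1 list per replicate, 1 from pooled reads, and a thresholded list derived by irreproducible discovery rate. Each region carries the deposited signal, the authors' peak caller's value, and a summit offset. The aligner and caller were not given in the sources used here and depth is unknown. Lists on dm3 were not used here. The replicate and pooled lists held 30000 regions each, a fixed maximum, and the thresholded list equalled the 5035 pooled regions of highest signal.

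Genes and TSSs came from Ensembl release 115 (BDGP6.54) and sequence from the RefSeq copy of the same Release 6 assembly. Summits were matched to TSSs with Python 3.11.15, pandas 2.3.3, numpy 2.4.6 and biopython 1.88, figures drawn with matplotlib 3.10.9, and the matching tested on simulated data. A replicate held a region when a summit of its top regions lay inside it. With 1 group no p-value was computed. Members and lists were chosen with earlier results of these data known. All bound and unbound members were named, as were genes sharing their promoters and up to 5 bound genes of each related list. Alternatives were TSS distance, overlap rule, list and replicate.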

Additional observations from a re-analysis of the deposited data

How the results depend on the processing

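With TSS distances of 250 and 1000 bp, any base of a region within 500 bp, or the top regions of replicate 1 or 3 alone, the counts of bound acetyltransferase genes, of both classes and of the related genes stayed within 1.5 times those reported. The higher-signal part of the thresholded list, at or above its median, left 5 acetyltransferase genes (4 of Gcn5 complexes, 1 other) and 7 related genes, or 12.5% (13.8% and 9.09%) and 14.9%, against 11.4% of all protein-coding genes. The pooled list gave 24 (15 and 9) and 37, with a median summit position of -55 bp. Regions held by all 3 replicates gave 7 (5 and 2) and 9, and top regions of replicate 2 alone gave 8 acetyltransferase genes, of which 2 were others, and 11 related genes. Each replicate was also left out in turn, with regions asked to hold a top summit of both others. That gave 7 to 11 acetyltransferase genes (17.5% to 27.5%), against 12% to 16.6% of all protein-coding genes. The acetyltransferase genes were 5 to 7 of Gcn5 complexes and 2 to 4 others, with median positions of -183 to -142 bp. Related genes numbered 9 to 12. Isolated genes alone were bound at 21.4% of all acetyltransferase genes and 12.5% of Gcn5 complex genes. The stricter lists hold fewer regions and the pooled list more, and no other cause was tested. Alternatives for the related genes were chosen after seeing the data. No paired analysis was possible because there was 1 group. Depth is unknown, so a gene with no region is one not detected at the depth of these libraries.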
